A study of Mus musculus with 12 samples.

Results

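Transcripts of the pyruvate and 2-oxoglutarate dehydrogenase complexes were followed in mouse embryonic fibroblasts that lack TSC2 (TSC2-/-), the brake on the growth-promoting kinase mTOR. The set held 10 genes: Pdha1, Pdhb, Dlat, Pdhx, Dld, Ogdh, Dlst, the phosphatases Pdp1 and Pdp2, and the pyruvate carboxylase Pcx. They were chosen by name, with earlier results of these data known. Counts of members set below against shares of all genes are thus a description and no test of the set. Every probe set with 1 of the 10 genes as its only symbol in the platform annotation was taken. This gave 24 of the 45101 probe sets, and the 10 genes stood among 18193 named genes. Of the 24, 20 were tested, and the other 4 are Affymetrix controls built on Pcx, which are described beside it. All 12 Affymetrix MOE430 v2 arrays came from TSC2-/- cells, so the controls carried the deletion too and no wild-type cells were on the arrays. In the first experiment 3 cultures received DMSO vehicle and 3 received 20 nM rapamycin, an inhibitor of mTOR, for 14 h. In the second, confluent cells were infected for 10 h with adenovirus expressing GFP (3 arrays) or PGC-1alpha (3 arrays), a coactivator of transcription and a known inducer of mitochondrial biogenesis, and were harvested 14 h after the medium change. The submitters call the arrays biological triplicates, and p-values measure the spread between the arrays of a group. The labels do not say whether the cells are of a single clone.

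Pyruvate dehydrogenase turns pyruvate from glycolysis into acetyl-CoA, and 2-oxoglutarate dehydrogenase turns 2-oxoglutarate into succinyl-CoA inside the tricarboxylic acid cycle. Both are large mitochondrial assemblies of the same plan. A thiamine-dependent decarboxylase (Pdha1 with Pdhb, or Ogdh) passes the acyl group to the lipoyl arm of a core acyltransferase (Dlat, or Dlst). Dihydrolipoamide dehydrogenase (Dld), shared by both complexes, then reoxidises that arm. Pdhx is the structural core protein that holds Dld in the pyruvate complex. Phosphorylation of Pdha1 by the PDH kinases switches the pyruvate complex off, and Pdp1 and Pdp2 reverse it. Pcx, a biotin enzyme, sends pyruvate to oxaloacetate instead.

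Median intensity lay between 77.49 and 81.04 on all 12 arrays. Log2 values below are log2 of the RMA intensity, and a gene is represented by its brightest tested probe set, the one with the highest mean over the 12 arrays once Affymetrix controls are left out. The label of the infected cells was checked on Ppargc1a. Its brightest probe set read 87.8 ± 11.8 with GFP and 2344 ± 191 with PGC-1alpha (intensity, SD, n = 3 each). With vehicle that probe set read 40.7, against 63.4 for another Ppargc1a probe set. The other Ppargc1a probe sets stood at 0.006, 0.004, -0.13 and 0.03 with PGC-1alpha on the log2 scale. None of these passed (limma adjusted p = 0.54 to 0.99). With rapamycin the brightest Ppargc1a probe set stood at -0.13 (limma adjusted p = 0.19). The one that read 63.4 with vehicle stood at -0.31 (limma adjusted p = 0.0022). The rest read 19.4, 18.9 and 37.9 with vehicle and stood at -0.35, -0.30 and -0.10 (limma adjusted p = 0.0045, 0.018 and 0.27). Tsc2 itself read 262 ± 15.6 with vehicle, 198 ± 17.7 with rapamycin, 225 ± 25.1 with GFP and 242 ± 13.1 with PGC-1alpha (intensity, SD, n = 3 each), and its probe set lies at the 74.6 percentile of all probe sets by mean level. It fell with rapamycin (-0.40, limma adjusted p = 0.00079) and did not pass with PGC-1alpha (0.11, limma adjusted p = 0.68). With no wild-type arrays, and with the position of this probe set relative to the deletion unknown here, these values do not check the TSC2-/- label. The fibroblast label was checked on 11 markers, of which 10 had a mean log2 value of 6 or more. Summed over these 11, intensity ran from 59403 to 61349 with vehicle and from 62764 to 67111 with rapamycin, and 5 of them rose. Of 5 epithelial markers 2 rose with rapamycin (summed intensity 1233 to 1301 with vehicle and 1490 to 1546 with rapamycin). Of 6 macrophage markers 1 rose (502 to 542 and 544 to 556), and of 5 muscle markers 1 fell (595 to 655 and 572 to 596). Over all genes 11.3% rose and 18.0% fell with rapamycin (limma, Benjamini-Hochberg adjusted p under 0.05). No endothelial marker of 5 passed (288 to 315 and 300 to 316; 0 of 5 at an unadjusted p under 0.05 by limma). Of the macrophage markers 3, namely Ptprc, Itgam and Cd68, and of the endothelial markers 4 had a mean log2 value below 6. Cd68 was the macrophage marker that rose (0.29, limma adjusted p = 0.019), and its vehicle and rapamycin arrays overlapped. By mean level the epithelial markers Epcam and Krt18 lay at the 90.7 and 84.6 percentile of all probe sets. Krt8, Cldn4 and Cdh1 lay at 61.2, 48.3 and 25.7. The highest macrophage, endothelial and muscle markers, Csf1r, Kdr and Des, lay at 73.7, 69.4 and 77.2. The fibroblast markers Thy1, Pdgfrb and Lum lay at 79.4, 76.0 and 29.2, and the others at 91.6 or higher. Levels of different probe sets are not comparable, so these markers do not settle the label. With PGC-1alpha 0 markers of these cell types passed, and at an unadjusted p under 0.05 by limma 2 fibroblast markers were higher and 1 lower. The part of these markers in the results below was not tested. In bulk RNA, fewer cells of a type and less RNA per cell cannot be told apart.

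With rapamycin, 6 of the 10 genes fell and 0 rose, and the falls lay in the lipoyl core, the shared dehydrogenase, the oxoglutarate complex and Pcx. Pdhx and Ogdh fell most, by 0.59 and 0.55 on the log2 scale. The E1 pair of the pyruvate complex, Pdha1 and Pdhb, did not pass the test. The median change over the 10 genes was -0.23, against -0.015 over all 18193 genes. Among all genes 18.0% fell and 11.3% rose at the same threshold (limma, Benjamini-Hochberg adjusted p under 0.05). Rapamycin arrays lay below all vehicle arrays for 6 of the 10 genes, against 24.6% of all genes. By mean level the complex subunits lay between the 81.7 (Pdhx) and the 97.7 (Pdha1) percentile of all probe sets. Pcx, Pdp1 and Pdp2 lay at 71.2, 59.3 and 53.6. Shares among genes of like brightness were not computed, for either experiment. Rapamycin replicate 2 had the highest rapamycin value for 8 of the 10 genes. No member passed upward by its brightest probe set, nor did any at an unadjusted p under 0.05 by limma.

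**Figure D1:**
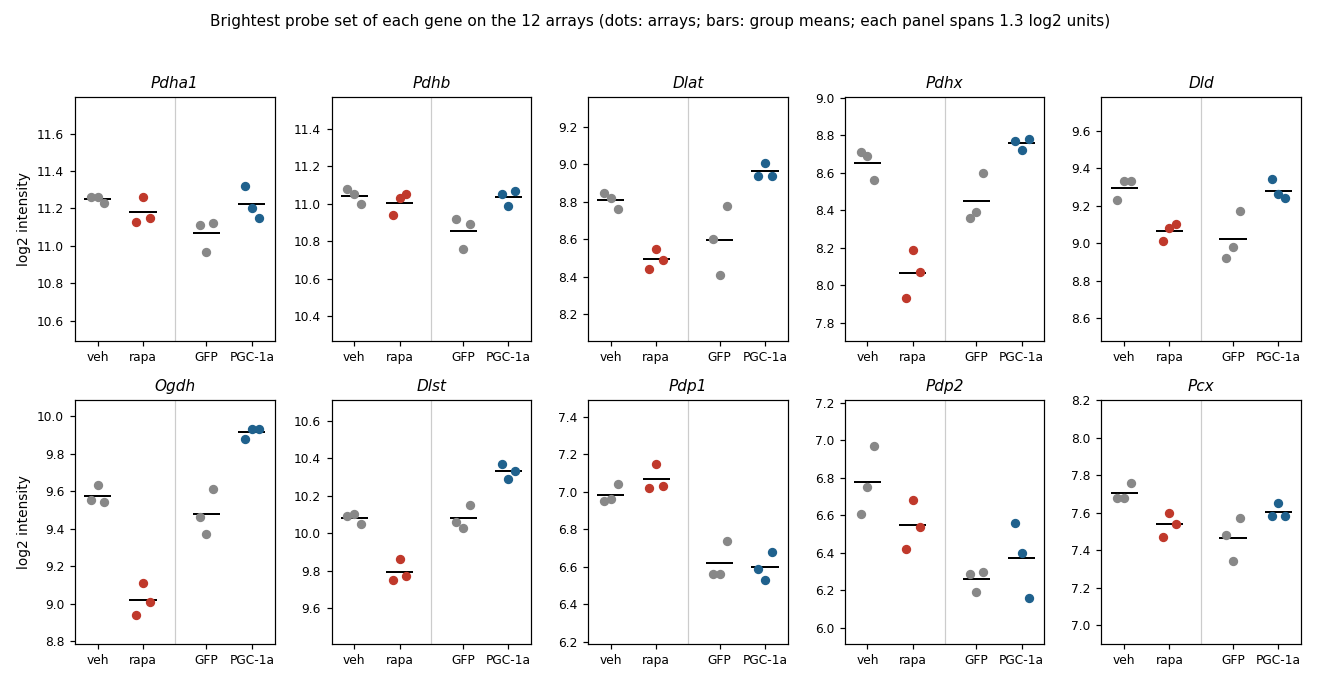
Log2 intensity of the brightest probe set of each of the 10 genes on the 12 arrays, in the vehicle, rapamycin, GFP and PGC-1alpha groups (dots are arrays, bars are means of 3). Pdhx and Ogdh show a wide gap between vehicle and rapamycin, whereas the Pdha1 and Pdhb arrays of these groups overlap; the experiments were normalized apart, so levels compare only on one side of the grey line.

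Pdhx read 8.71, 8.69 and 8.56 on the vehicle arrays and 7.93, 8.19 and 8.07 on the rapamycin arrays. The groups were well apart, and mean intensity went from 402 ± 22 to 268 ± 24 (SD, n = 3 each). Intensity changed by -33.5% (log2 change -0.59, SE 0.07, limma adjusted p = 3.5e-05). Dlat, the acetyltransferase of the same core, read 8.85, 8.82 and 8.76 with vehicle and 8.44, 8.55 and 8.49 with rapamycin. Every rapamycin array lay below every vehicle array, and the fall was 0.31 (SE 0.06, limma adjusted p = 0.0008). That Dlat probe set is of the x type, whose probes may also match related transcripts. A second Dlat probe set of similar brightness fell by 0.29, and the dimmest of the 3 stood at -0.08 (limma adjusted p = 0.41). Dld read 9.23, 9.33 and 9.33 with vehicle and 9.01, 9.08 and 9.10 with rapamycin. These groups did not overlap either, and the fall was 0.23 (SE 0.06, limma adjusted p = 0.0073). With quantile normalization over all 12 arrays the Dld change was -0.15 and no longer passed (limma adjusted p = 0.059). The other Dld probe set had a mean intensity of 20.6 with vehicle and 20.3 with rapamycin, at the 12.7 percentile of all probe sets by mean level.

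In the oxoglutarate complex both specific subunits fell. Ogdh, the decarboxylase, read 9.55, 9.63 and 9.54 with vehicle and 8.94, 9.11 and 9.01 with rapamycin. Its lowest vehicle array stood far above its highest rapamycin array, and mean intensity went from 761 ± 26 to 519 ± 31 (SD, n = 3 each). The fall was 1.47-fold (log2 change -0.55, SE 0.06, limma adjusted p = 1.6e-05). The second, dimmer Ogdh probe set read 6.78, 6.73 and 6.66 against 6.22, 6.60 and 6.29 and fell by 0.36 (limma adjusted p = 0.007). Dlst, the succinyltransferase, read 10.09, 10.10 and 10.05 with vehicle and 9.75, 9.86 and 9.77 with rapamycin. Its fall of 0.29 (SE 0.05, limma adjusted p = 0.0014) was shared by 2 of its 3 dimmer probe sets, at -0.26 and -0.22. The remaining one stood at -0.06 (limma adjusted p = 0.49).

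The pyruvate decarboxylase pair gave a different picture. Pdha1, the subunit that carries the regulatory phosphorylation sites, read 11.26, 11.26 and 11.23 with vehicle and 11.13, 11.26 and 11.15 with rapamycin. Pdhb, its partner, read 11.08, 11.05 and 11.00 against 10.94, 11.03 and 11.05. The arrays overlapped for both genes. Their log2 changes were -0.07 (95% confidence interval -0.19 to 0.05, limma adjusted p = 0.44) and -0.04 (-0.16 to 0.09, limma adjusted p = 0.72), and the second probe set of each stood at -0.05 and -0.06. With quantile normalization over 12 arrays both changes turned to 0.02 and 0.05. Scaled instead on the bacterial spike controls, which lowers the median change of all probe sets to -0.19, both passed as lowered (-0.26 and -0.22, limma adjusted p = 0.016 and 0.033). With that scaling 9 of the 10 genes fell, Pdp1 being the exception, and 18556 of all 45037 probe sets fell too, against 6301 without it.

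The phosphatases were dimmer and moved less clearly. Pdp1 read 6.95, 6.96 and 7.04 with vehicle and 7.02, 7.15 and 7.03 with rapamycin, and did not pass (0.08, SE 0.06, limma adjusted p = 0.36; -0.11 with spike scaling). Its other probe set rose by 0.41 (SE 0.09, limma adjusted p = 0.0053) and was the only 1 of the 20 member probe sets that passed upward, while 10 passed downward (all probe sets: 11.5% raised, 14.0% lowered). It lies at the 10.9 percentile of all probe sets by mean level, with mean intensities of 20.1 and 26.9. Pdp2 read 6.61, 6.75 and 6.97 against 6.42, 6.68 and 6.54, with overlapping groups (-0.23, SE 0.09, limma adjusted p = 0.077). Without vehicle replicate 1 or rapamycin replicate 2 it passed (-0.31 and -0.30, limma adjusted p = 0.023 and 0.038).

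Pcx read 7.68, 7.68 and 7.76 with vehicle and 7.47, 7.60 and 7.54 with rapamycin. The groups did not overlap, and its fall of 0.17 passed narrowly (SE 0.06, limma adjusted p = 0.044). Leaving out any 1 array other than rapamycin replicate 2 ended the call, for vehicle replicates 1, 2 and 3 and rapamycin replicates 1 and 3 (limma adjusted p = 0.077, 0.079, 0.15, 0.15 and 0.1). A fit over all 12 arrays ended it too (limma adjusted p = 0.057). The 4 control probe sets on Pcx, of which 3 are brighter than the tested one and which tile the transcript from its 5′ to its 3′ end, stood between -0.05 and -0.13. When they were kept in the fit none passed (limma adjusted p = 0.095 to 0.57; 1 of the 4 had an unadjusted p under 0.05). The 3′/5′ signal ratio of these Pcx controls, a measure of RNA integrity, ran from 1.024 to 1.114 with vehicle and from 0.982 to 1.088 with rapamycin, and the groups overlapped. That of the Gapdh controls ran from 0.840 to 0.861 and from 0.807 to 0.826, without overlap. Its part in the falls was not tested.

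**Figure D2:**
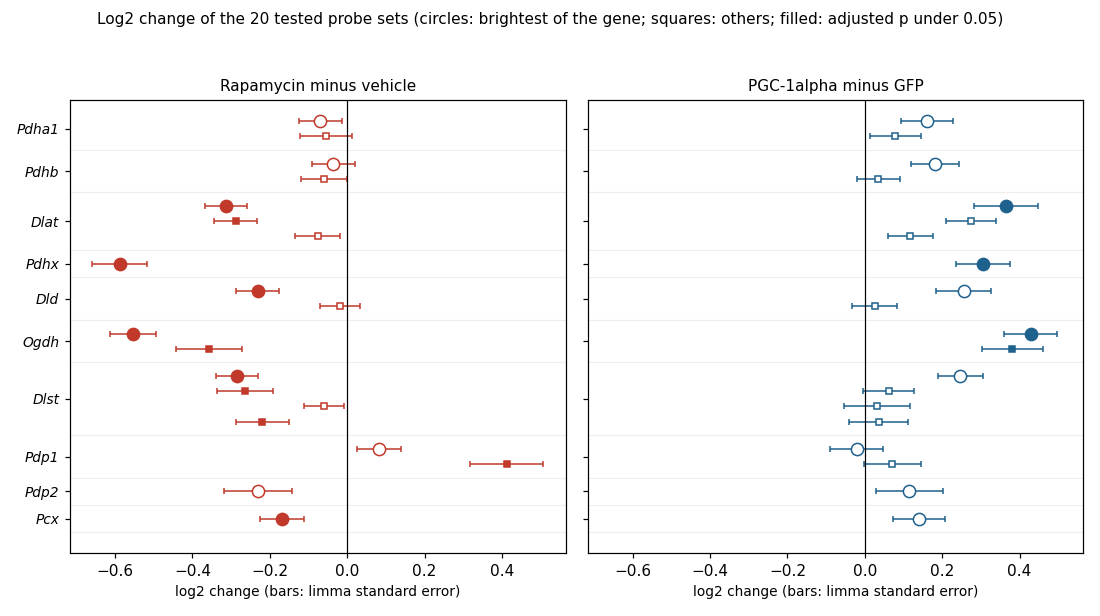
Log2 change (treated minus control, bars are limma standard errors) of the 20 tested probe sets, for rapamycin on the left and PGC-1alpha on the right; circles mark the brightest probe set of a gene and filled symbols an adjusted p under 0.05. Rapamycin changes run from -0.59 to 0.41 and PGC-1alpha changes from -0.02 to 0.43, with Pdha1 and Pdhb near 0 on the left.

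With PGC-1alpha, 3 of the 10 genes rose, namely Ogdh, Dlat and Pdhx, and 0 fell. The median change was 0.21, against 0.007 over all genes, and among all genes 1.41% rose and 0.594% fell (limma, adjusted p under 0.05). PGC-1alpha arrays lay above all GFP arrays for all 7 complex subunits and for Pcx, 8 of the 10 genes, against 10.1% of all genes. At an unadjusted p under 0.05 by limma 7 members were higher and 0 lower. The GFP arrays were the more scattered for most members, and GFP replicate 3 had the highest GFP value for 9 of the 10 genes. Pdp2 (log2 SD 0.059 with GFP and 0.200 with PGC-1alpha) and Pdha1 (0.083 and 0.086) were the exceptions in scatter. Between whole arrays, GFP replicates 1 and 2 correlated at 0.9984, and the PGC-1alpha arrays with each other at 0.9984 to 0.9987. GFP replicate 3 correlated at 0.9973 and 0.9970 with GFP replicates 1 and 2. With the PGC-1alpha arrays it correlated at 0.9972 to 0.9975. By probe set, 4 of the 20 rose and 0 fell (all probe sets: 0.997% raised, 0.955% lowered).

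Ogdh read 9.46, 9.37 and 9.61 with GFP and 9.88, 9.93 and 9.93 with PGC-1alpha. The groups did not overlap, and mean intensity went from 717 ± 62 to 963 ± 20 (SD, n = 3 each). The rise was 1.35-fold (log2 change 0.43, SE 0.07, limma adjusted p = 0.007). Its second probe set read 6.54, 6.48 and 6.66 against 7.10, 6.92 and 6.81 and rose by 0.38 (limma adjusted p = 0.031). The Ogdh call was lost without PGC-1alpha replicate 3 (0.42, limma adjusted p = 0.051) and held without any other array. Dlst, its partner, read 10.06, 10.03 and 10.15 with GFP and 10.37, 10.29 and 10.33 with PGC-1alpha. These groups were apart too, yet the change of 0.25 missed the threshold (SE 0.06, limma adjusted p = 0.058). It passed without GFP replicate 3 (0.28, limma adjusted p = 0.013), and on all arrays in the fit over 12 arrays, with a pseudocount of 16 and with dim probe sets left out (limma adjusted p = 0.015, 0.047 and 0.047). Its dimmer probe sets stood between 0.03 and 0.06.

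In the pyruvate core, Dlat read 8.60, 8.41 and 8.78 with GFP and 8.94, 9.01 and 8.94 with PGC-1alpha. All PGC-1alpha arrays were above the GFP arrays, which spread widely, and the rise of 0.37 passed (SE 0.08, limma adjusted p = 0.044). The second Dlat probe set stood at 0.28 (limma adjusted p = 0.055). Pdhx read 8.36, 8.39 and 8.60 against 8.77, 8.72 and 8.78 and rose by 0.30 (SE 0.07, limma adjusted p = 0.049). Both calls were lost when any 1 array other than GFP replicate 3 was left out. Dlat was also lost with a pseudocount of 16 (limma adjusted p = 0.09) and with its probe sets averaged (0.25, limma adjusted p = 0.066), and Pdhx with that pseudocount (limma adjusted p = 0.074) and with spike scaling (0.47, limma adjusted p = 0.094). With an array left out the limma adjusted p lay between 0.13 and 0.18 for Dlat and between 0.14 and 0.21 for Pdhx, with changes of 0.27 to 0.38 and 0.26 to 0.32. Without GFP replicate 3 both passed at 0.0024, and Dld passed as well (0.33, limma adjusted p = 0.0071). On all arrays Dld read 8.92, 8.98 and 9.17 with GFP and 9.34, 9.26 and 9.24 with PGC-1alpha, a change of 0.26 that did not pass (SE 0.07, limma adjusted p = 0.11). In the fit over 12 arrays the Dld change passed (limma adjusted p = 0.033).

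Pdha1 read 11.11, 10.97 and 11.12 with GFP and 11.32, 11.20 and 11.15 with PGC-1alpha. Pdhb read 10.92, 10.76 and 10.89 against 11.05, 10.99 and 11.07. The groups did not overlap for either gene, and the changes of 0.16 (95% confidence interval 0.02 to 0.31, limma adjusted p = 0.35) and 0.18 (0.05 to 0.32, limma adjusted p = 0.22) did not pass. Pdp1 (6.56, 6.56 and 6.74 against 6.59, 6.53 and 6.68) and Pdp2 (6.29, 6.19 and 6.30 against 6.56, 6.40 and 6.16) overlapped between groups, at -0.02 and 0.11. Pcx read 7.48, 7.34 and 7.57 with GFP and 7.58, 7.65 and 7.58 with PGC-1alpha (0.14, SE 0.07, limma adjusted p = 0.47). Its control probe sets did not move together, at 0.09 at the 3′ end and -0.02 at the 5′ end. The Pcx 3′/5′ ratio thus ran from 0.838 to 0.897 with GFP and from 0.905 to 0.959 with PGC-1alpha, without overlap. The Gapdh ratio was also apart, at 0.865 to 0.879 and 0.894 to 0.905. The part of these ratios in the PGC-1alpha changes was not tested.

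The promoters of the genes that moved most are shown for reference, since the series title names YY1 with PGC-1alpha. The windows run from 250 bases before to 50 bases after an annotated start, from RefSeq (GRCm38.p6), and 9 of the 10 genes had 15 of them. Both strands were searched for AAGATGGCG, a motif of YY1, CAAGGTCA, a motif of the estrogen-related receptors that partner PGC-1alpha, and GCGCATGCG, a motif of NRF1. Of all 32851 windows 1.4%, 1.56% and 1.75% held them. Among the members only Ogdh windows had a match, in 3 of its 6, and a gene with more windows has more chances of one. Capitals mark the matches. In the first sequence (chr11:6291920-6292219, plus strand) the receptor motif lies on the opposite strand, from 5 bases before the start. In the second (chr11:6292308-6292607, plus strand) the NRF1 motif begins 15 bases before the start, and another window overlapping it holds the same match. The Pdhx window (chr2:103073464-103073763, minus strand) had none of the 3, which says only that these letters are not in it.
Ogdh, receptor motif: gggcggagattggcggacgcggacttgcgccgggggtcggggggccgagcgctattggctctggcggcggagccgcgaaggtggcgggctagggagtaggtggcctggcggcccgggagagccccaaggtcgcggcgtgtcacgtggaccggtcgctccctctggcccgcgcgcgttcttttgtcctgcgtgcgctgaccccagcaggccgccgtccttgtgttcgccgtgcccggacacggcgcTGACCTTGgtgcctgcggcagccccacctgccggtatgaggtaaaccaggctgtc
Ogdh, NRF1 motif: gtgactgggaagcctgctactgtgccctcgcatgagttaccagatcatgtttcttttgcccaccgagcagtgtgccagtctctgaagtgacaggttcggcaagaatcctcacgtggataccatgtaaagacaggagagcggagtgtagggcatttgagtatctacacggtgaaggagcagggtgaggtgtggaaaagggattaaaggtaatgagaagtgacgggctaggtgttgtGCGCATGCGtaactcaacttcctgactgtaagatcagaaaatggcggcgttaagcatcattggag
Pdhx: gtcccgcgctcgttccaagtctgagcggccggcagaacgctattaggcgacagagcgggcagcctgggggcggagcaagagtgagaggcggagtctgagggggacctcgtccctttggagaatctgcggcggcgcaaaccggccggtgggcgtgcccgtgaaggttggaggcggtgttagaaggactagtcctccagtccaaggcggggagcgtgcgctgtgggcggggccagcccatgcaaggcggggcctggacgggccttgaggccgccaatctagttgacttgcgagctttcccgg

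Set side by side, 9 of the 10 genes had a lower mean with rapamycin and a higher mean with PGC-1alpha, a pair of signs seen in 32.5% of all genes. For Ogdh, Dlat and Pdhx both changes passed, as for 0.764% of all genes. The difference between the effects was tested in 1 limma fit of the 4 group means. It passed for 6 of the 10 genes, all with the rapamycin change below the PGC-1alpha change, against 16.5% of all genes in that direction. It was greatest for Ogdh (-0.98, SE 0.09, limma adjusted p = 4.4e-07) and Pdhx (-0.89, SE 0.10, limma adjusted p = 4.4e-06). Dlat (-0.68), Dlst (-0.53), Dld (-0.49) and Pcx (-0.31, limma adjusted p = 0.017) followed. Pdha1 (-0.23) and Pdhb (-0.22) missed the threshold (limma adjusted p = 0.071 and 0.074), as did Pdp2 (-0.34, limma adjusted p = 0.082) and Pdp1 (0.10, limma adjusted p = 0.51).

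Whether subunits of 1 complex kept step was read from differences taken within each array, which no scaling of an array can shift. The 6 pairs were picked after the changes were seen. Levels of different probe sets are not comparable, so only the shift of a difference between groups is read. Pdhx minus Pdha1 went from -2.55, -2.57 and -2.67 with vehicle to -3.20, -3.07 and -3.08 with rapamycin, a shift of -0.52. Dlat minus Pdha1 shifted by -0.24 and Dld minus Pdha1 by -0.16, and none of these groups overlapped. Pdhb minus Pdha1 overlapped (shift 0.03). Pdhx minus Dlat also separated the groups, from -0.14, -0.13 and -0.20 to -0.51, -0.37 and -0.42. In the oxoglutarate complex Dlst minus Ogdh went from 0.55, 0.47 and 0.51 to 0.81, 0.75 and 0.77 with rapamycin, and from 0.60, 0.66 and 0.54 with GFP to 0.49, 0.36 and 0.40 with PGC-1alpha. The other 5 pairs overlapped with PGC-1alpha. With 3 arrays against 3, the two-sided exact permutation test cannot go below p = 0.1, which 6 of the 12 tests reached, 5 with rapamycin and 1 with PGC-1alpha (adjusted p = 0.2 by Benjamini-Hochberg). The share of all gene pairs that separate in this way was not computed. Most of these pairs also share Pdha1, so the count cannot be called unusual.

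**Figure D3:**
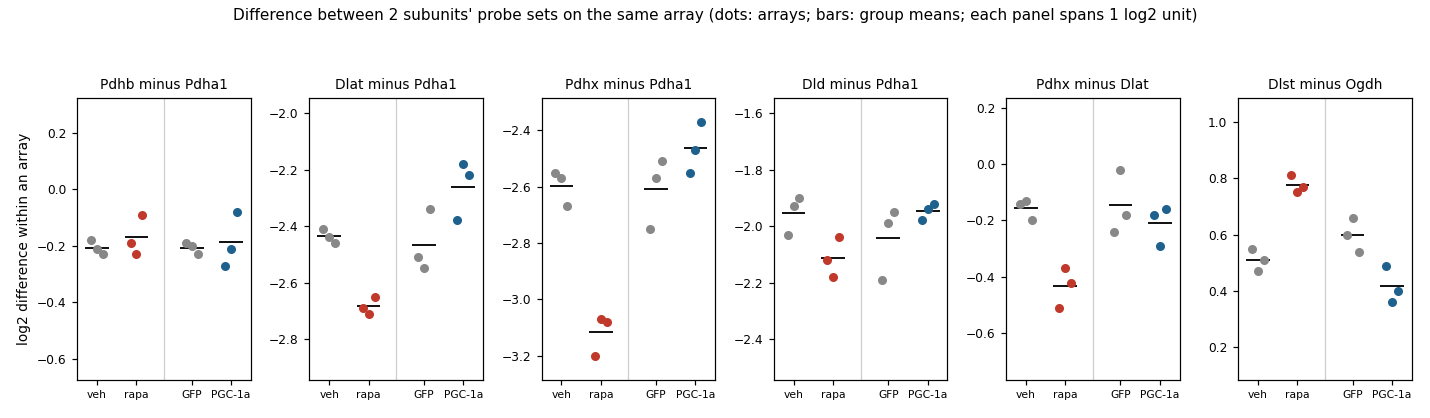
Log2 difference between the probe sets of 2 subunits on the same array, for 6 pairs in the 4 groups (dots are arrays, bars are means of 3; every panel spans 1 log2 unit). Pdhx minus Pdha1 shifts by -0.52 with rapamycin while Pdhb minus Pdha1 does not separate the groups, and Dlst minus Ogdh shifts by 0.27 with rapamycin and by -0.18 with PGC-1alpha.

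Genes around the complexes were read from lists of related enzymes. For the counts below, 18.0% of all genes fell and 11.3% rose with rapamycin (limma adjusted p under 0.05). With PGC-1alpha 1.41% rose and 0.594% fell. The lists were not tested as sets against these shares. Of 6 measured PDH kinases, pyruvate carrier and regulator genes, 3 rose and 2 fell with rapamycin. The kinases Pdk1 (-0.75, limma adjusted p = 3.8e-06) and Pdk3 (-0.36) fell. The dim kinases Pdk2 and Pdk4 rose, by 0.27 and 0.17 (limma adjusted p = 0.0021 and 0.033). Pdpr, the regulatory subunit of the PDH phosphatase, rose by 0.89 (SE 0.07, limma adjusted p = 9.6e-07), and 4 of 4 probe sets passed upward. Its brightest probe set is of the x type, as that of Dlat is. With PGC-1alpha Pdpr fell by 0.44 (SE 0.06, limma adjusted p = 0.0031; 2 of 4 probe sets), and the pyruvate carrier subunit Mpc1 rose by 0.38 (limma adjusted p = 0.013). Pdpr thus passed in the opposite direction to Ogdh, Dlat and Pdhx in both experiments.

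Of 8 genes of lipoate attachment and glycine cleavage, 4 fell and 0 rose with rapamycin (0 higher at an unadjusted p under 0.05 by limma). They were Gcsh, the lipoyl protein of glycine cleavage (-0.47), the lipoate synthase Lias (-0.38), Mecr (-0.35) and Lipt2 (-0.22). With PGC-1alpha 0 of these 8 passed (4 were higher and 0 lower at an unadjusted p under 0.05 by limma), with Mecr at 0.30 and Lipt1 at 0.20. The branched-chain keto acid dehydrogenase, built on the same plan, split with rapamycin. Its E1 subunits went apart, Bckdha up by 1.26 and Bckdhb down by 0.58, and its core Dbt fell by 0.80 (limma adjusted p = 3.7e-05). With PGC-1alpha 0 of the 6 measured genes of that list passed (1 higher at an unadjusted p under 0.05 by limma), with Bckdk at 0.16 and Ppm1k at 0.08.

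Of 13 other tricarboxylic acid cycle genes, 6 fell and 1 rose with rapamycin, with a median of -0.14. Idh3a, which makes the substrate of Ogdh, fell by 0.71, citrate synthase (Cs) by 0.31 and Suclg1, which uses the product, by 0.28, while Idh3g rose by 0.18. With PGC-1alpha 5 of the 13 rose and 0 fell (median 0.26; 0 lower at an unadjusted p under 0.05 by limma), among them Idh3a (0.63) and Suclg1 (0.35). Of 5 thiamine and biotin supply genes 2 fell with rapamycin, the thiamine transporter Slc19a2 (-0.62) and the biotin transporter Slc5a6 (-0.49). Of the 6 other biotin carboxylase genes 3 fell and 1 rose, with Acaca, acetyl-CoA carboxylase, at -0.43 and Pccb at 0.22. Neither list had a call with PGC-1alpha (0 genes of either at an unadjusted p under 0.05 by limma). Of 9 genes on pyruvate and glutamate side routes 6 fell with rapamycin, led by lactate dehydrogenase Ldha (-0.73) and malic enzyme Me2 (-0.42). With rapamycin 0 of them rose by the brightest probe set, and 2 were higher at an unadjusted p under 0.05 by limma. With PGC-1alpha 1 of these rose, Ldhb, by 0.88. With rapamycin its brightest probe set stood at 0.17 (limma adjusted p = 0.099), though 3 of its 4 probe sets passed upward.

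The genes most like the member with the greatest change in each experiment were found by Euclidean distance over the 12 arrays, each log2 value centred on its experiment's mean. For Pdhx these were Pla2g12a (0.12), Ddah1 (0.14), Tnfrsf12a (0.14), Qtrt1 (0.17) and Pus7 (0.18), against a median distance of 0.89 over all genes. For Ogdh they were Qtrt1 (0.16), the ATP synthase gene Atp5g1 (0.17), cytochrome c1 (Cyc1, 0.17), Mto1 (0.17) and Tmx2 (0.18), against a median of 0.91. Among the members Pdhx and Ogdh were each other's nearest, at 0.23, which ranked 32 among all genes for Pdhx and 20 for Ogdh.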

How the data were processed

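The authors' deposited values are intensities per probe set from RMA at default settings in BioConductor 1.2, per the series design text. Rapamycin and vehicle arrays formed 1 RMA batch, PGC-1alpha and GFP arrays another, so no level is set against one from the other batch. The scale of the values is unstated; from their range, 9.299 to 21072.4, they were taken as linear, and log2 of the deposited values was used with no pseudocount. RMA equalises the arrays' distributions, which hides changes in total RNA. Precision is limited by the 3 arrays per group.

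Each comparison was fitted on its 6 arrays (limma 3.58.1, R 4.3.3; moderated SE; two-sided). Benjamini-Hochberg adjustment ran over 45037 probe sets, without 64 controls. The fit was tested on simulated data in which probe sets were independent and few changed. The deposited data differ in this, so that test does not check the calls made here. Entrez IDs linked 34741 of 34945 probe sets with 1 symbol to RefSeq. Members and lists were chosen with earlier results of these data known. Named are all members and, per list and comparison, up to 4 of the genes past the threshold by size of change, with the largest in the other direction (with no such gene, the 2 of smallest p); not all are described. Pdk4, the rapamycin values of Ldhb and the cell type markers are named beyond that rule. Promoters were searched and figures drawn in Python 3.11.15 (pandas 2.3.3, matplotlib 3.10.9). Proteins were not analysed here.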

Additional observations from a re-analysis of the deposited data

How the results depend on the processing

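The alternatives were spike scaling, quantile normalization over 12 arrays, 1 fit over 12 arrays, a pseudocount of 16, leaving out dim probe sets, an intensity trend with robust eBayes, a replicate block, averaged probe sets and leaving out each array; keeping the control probe sets was chosen after seeing the data. Under them the rapamycin falls of Pdhx, Ogdh, Dlat and Dlst passed in 15 of 15 settings each. Spike scaling called 20004 probe sets with rapamycin (1448 raised and 18556 lowered, against 5168 and 6301) and 325 with PGC-1alpha (296 raised and 29 lowered, against 449 and 430). The fit over 12 arrays called 1485 with PGC-1alpha, and 5 members. Leaving out 1 array gave 9154 to 11692 probe sets and 5 to 7 members with rapamycin, and 283 to 2837 probe sets and 0 to 5 members with PGC-1alpha; the 0, without PGC-1alpha replicate 3, had 7 members at an unadjusted p under 0.05 by limma, the 5 came without GFP replicate 3, and leaving out any other array left 1, Ogdh. The sign of Pdp1 turned with spike scaling (-0.11 with rapamycin, 0.15 with PGC-1alpha). For PGC-1alpha it ran from -0.06 to 0.04 when 1 array was left out (0.04 without GFP replicate 3, 0.01 without PGC-1alpha replicate 2) and turned with averaged probe sets (0.02). Pdha1 and Pdhb turned to 0.02 and 0.05 with rapamycin under quantile normalization over 12 arrays. The cause of these shifts was not tested. With averaged probe sets Pdp1 passed as raised with rapamycin (0.25, limma adjusted p = 0.014).

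No pairing of same-numbered arrays was seen. Their deviations from the group means correlated at -0.05, 0.07 and 0.00 with rapamycin and at -0.13, 0.23 and -0.01 with PGC-1alpha. With 3 arrays per group these correlations cannot exclude a shared culture or day. The replicate block called 11371 probe sets and 6 members with rapamycin, and 831 and 3 with PGC-1alpha. With rapamycin the 6 were not the same genes: Pcx no longer passed (-0.17, limma adjusted p = 0.054) and Pdp2 did (-0.23, limma adjusted p = 0.031). Of the pairings, 1 of the 6 treated arrays correlated best with its own number.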
